A study of Macaca fascicularis with 80 samples.

Results

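The most abundant transcripts of blood before dosing were followed through a study of interleukin 15 in macaques. They are the 100 genes, of 38550 listed, with the highest mean abundance on day 0, and they are called the members below. Abundance was measured in CPM, the counts of a gene scaled to a library of 1 M counts (M for mega), and averaged over the 8 libraries of day 0. Day 0 levels chose the members, so comparisons with day 0 are given as description only and tests were made only between later days. No gene names come with the identifiers in the files, and 0 identifiers matched the gene table at hand. Members are therefore called by their rank on day 0, rank 1 being the most abundant, and what each gene product does cannot be given.

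Blood came from 8 cynomolgus macaques (Macaca fascicularis), 4 females and 4 males, whose strain and age the labels do not give. All 8 animals were given IL-15/IL-15Ra. The first dose, of 5 µg/kg, fell on day 0, the second, of 10 µg/kg, on day 3 and the third, of 15 µg/kg, on day 7. Each animal gave 1 whole blood library on days 0, 1, 3, 4, 7, 8, 10, 14, 17 and 21, in all 80 libraries. Day 0 carries a dose of 0 in the labels and is the only baseline, while days 3 and 7 carry the preceding dose. Those 2 days are read here as bled before that day's dose, although the labels do not say so. Since each dose was larger and later than the one before, dose and time cannot be told apart, and no undosed animals were analysed. Library totals lay between 17.09 M and 80.22 M counts (median 24.29 M), and 8 exceeded 40 M, of which 1 was taken on day 7, 3 on day 8 and 4 on day 10. Column names carry sequencing tags: 71 libraries have the same tag. The run tag differs in 8 libraries, 3 from day 10 and 5 from day 14, and the library tag differs in 1 library from day 7. Blood cell markers could not be checked, because no identifier has a name.

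Whole blood RNA is a mixture from red cells and their precursors, platelets, granulocytes, monocytes and lymphocytes, and a short list of genes usually supplies a large part of its messages. IL-15 bound to its receptor alpha chain is known for stimulating natural killer and CD8 T cells, and cytokine treatment can shift which blood cells circulate. Sequencing counts are relative, so a rise of abundant transcripts lowers the share left for the rest even where their amounts stay the same. A scaling factor such as the trimmed mean of M-values (TMM) measures this shift from the ratios of most genes to a reference library. A factor below 1 means that most genes took a smaller share of their library, and scaling by it raises the values of that library. In bulk blood, fewer cells of a type and less RNA per cell cannot be told apart.

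On day 0 the members took 20.5% ± 1.17 of all counts (SD, n = 8), with a lowest library of 18.63%, a median of 21.14% and a highest of 21.23%. The member ranked 1 had a mean of 14750 CPM, or 1.47% of counts, and ran from 13360 CPM in animal 39104 to 16860 CPM in animal 39100. Ranks 1 to 10 together took 6.65% of counts. No single transcript or short group therefore dominated these libraries, and 706 genes on average were needed to reach 50% of the counts. The member ranked 100 had 989.8 CPM and the next gene, just outside the rule, 975.6 CPM, so the boundary falls within a smooth decline. Rank 1 stood 14.9-fold above rank 100.

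Membership differed among animals. On day 0, 47 of the 100 members were among the 100 most abundant genes of every animal, and 11 were so in 4 or fewer animals. The coefficient of variation over the 8 animals had a median of 22.1%, from 4.56% to 90.2%. The highest was that of the member ranked 9, with a mean of 3495 CPM, a lowest value of 1196 CPM, a median of 2364 CPM and a highest of 11050 CPM in animal 39097. Its place among the first 10 thus leaned on 1 animal. Choosing by the median over animals in place of the mean kept 98 of the 100 members.

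The members' share of counts was higher on days 4, 8 and 14 than on the days around them. Day 3 had 20.8% ± 1.46, day 4 had 21.97% ± 1.54 and day 7 had 20.3% ± 2.09 (SD, n = 8 for each day). Day 8 then had 23.3% ± 1.02, day 10 had 21.6% ± 2.05, day 14 had 23.8% ± 2.36 and day 17 had 20.4% ± 0.994. Days 1 and 21 had 21.1% ± 1.26 and 20.6% ± 1.91. All 8 libraries of day 8, which ran from 21.95% to 25.1%, lay above the highest library of day 0. Day 4 (18.67% to 23.89%) and day 14 (20.28% to 26.58%) overlapped day 0. No p is given for the share, since the members were chosen by their level.

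Within animals the swing was largest around day 8 and after day 14. From day 7 to day 8 the share rose in 8 of 8 animals, by 3.03 ± 1.91 percentage points, with a lowest change of 0.484 in animal 39103 and a highest of 6.24 in animal 39104. From day 14 to day 17 it was lower in 8 of 8 animals, with a mean change of -3.41 ± 2.09 points. The other changes were less uniform, at 1.13 ± 1.22 from day 3 to 4 (6 animals up), -1.67 ± 1.77 from day 4 to 7 (7 down), -1.73 ± 2.06 from day 8 to 10 (7 down) and 2.20 ± 2.27 from day 10 to 14 (6 up). The exceptions were animals 39090 and 39104 on day 4, 39103 on day 7, 39097 on day 10, and 39095 and 39097 on day 14.

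Scaling factors moved the other way. Days 4, 8 and 14 had been named for their low factors, so the level on those days is description and no test. The geometric mean of the factors over 8 animals lay between 1.02 and 1.05 on days 0, 1 and 3 and was 0.938 on day 4. It was 1.07 on day 7 but 0.832 on day 8, 1.01 on day 10 but 0.860 on day 14, then 1.11 on day 17 and 1.104 on day 21. From day 7 to day 8 the log2 factor changed by -0.369 ± 0.334 and was lower in 8 of 8 animals. From day 14 to 17 it changed by 0.369 and was higher in 8 of 8. From day 3 to 4 and from day 10 to 14 it was lower in 7 of 8 animals each. Share and factor changed in opposite directions in 7 or 8 of 8 animals in each of the 6 intervals between days 3, 4, 7, 8, 10, 14 and 17.

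**Figure D1:**
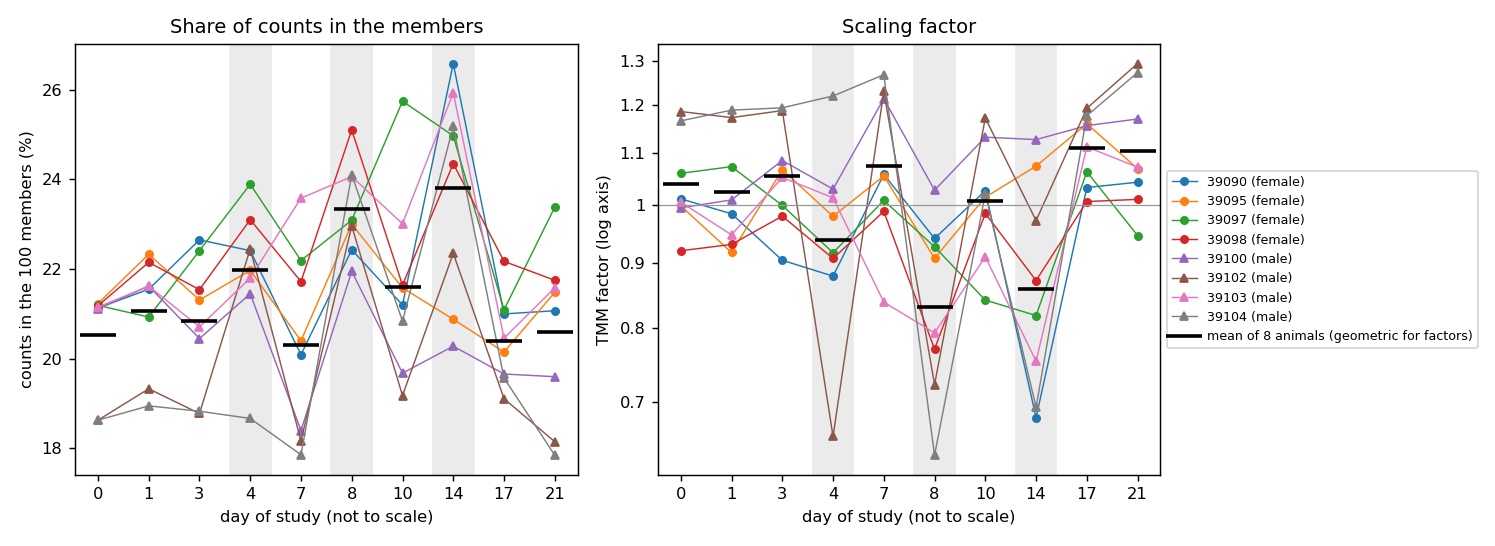
Percent of counts in the 100 members (left) and TMM factor on a log axis (right) by day of study, with 1 line per animal, circles for females, triangles for males and a bar for the mean of 8 animals (geometric for factors). Shaded days 4, 8 and 14 have higher mean shares (21.97%, 23.3% and 23.8%) and lower mean factors (0.938, 0.832 and 0.860) than the days beside them.

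Within days 4, 8 and 14 the factors differed widely among animals. Those days had been named for low factors, so finding the low libraries there is no result of its own. A factor under 0.8 was found in 8 of 80 libraries, all of days 4, 8 and 14 and from 5 animals. On day 4 it was 0.657 in animal 39102, while the 8 libraries of that day had a median of 0.949 and reached 1.22. On day 8 it was 0.770 in animal 39098, 0.722 in 39102, 0.793 in 39103 and 0.635 in 39104, against a highest of 1.03. On day 14 it was 0.680 in animal 39090, 0.753 in 39103 and 0.693 in 39104, against a highest of 1.13. Animal 39100 went through all 10 days without a factor under 0.996, its value of day 0. In all 8 low libraries the members took more counts (22.45% to 26.58%) than in any library of day 0. Of the 8, 3 exceeded 40 M counts (all of day 8) and 1, of animal 39090 on day 14, carries the other run tag, and the part of depth and run in the factors was not tested.

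The members' part in those factors was then measured by computing the factors again without them. With the members left out, both from the genes compared and from the library totals, the geometric mean was 0.944 on day 4, 0.850 on day 8 and 0.885 on day 14, against 1.06 on day 7, 1.01 on day 10 and 1.097 on day 17. Of the 8 low libraries, 6 stayed under 0.8. The library of animal 39104 on day 8 went from 0.635 to 0.654 and that of animal 39090 on day 14 from 0.680 to 0.724. In log2 units, 85.0% of the change from day 7 to 8 was still there among the other genes, and 15.0% belonged to the smaller share left by the members. The part that belonged to the members was 12.3% from day 3 to 4 and 17.8% from day 10 to 14. On the way back it was 15.5% from day 4 to 7, 11.3% from day 8 to 10 and 17% from day 14 to 17. Day 4 rested on animal 39102: without it the members' part was 20.2% from day 3 to 4 and 25.1% from day 4 to 7, of mean log2 factor changes of -0.0708 and 0.0933. In the other 4 intervals, omitting any 1 animal gave 10.1% to 19.3%. Multiplying the factor among the other genes by the share they held, relative to all libraries, gave back the full factor closely, at 0.938, 0.830 and 0.858 on days 4, 8 and 14. This follows nearly from the arithmetic of a trimmed mean and is no separate check on the parts given above.

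**Figure D2:**
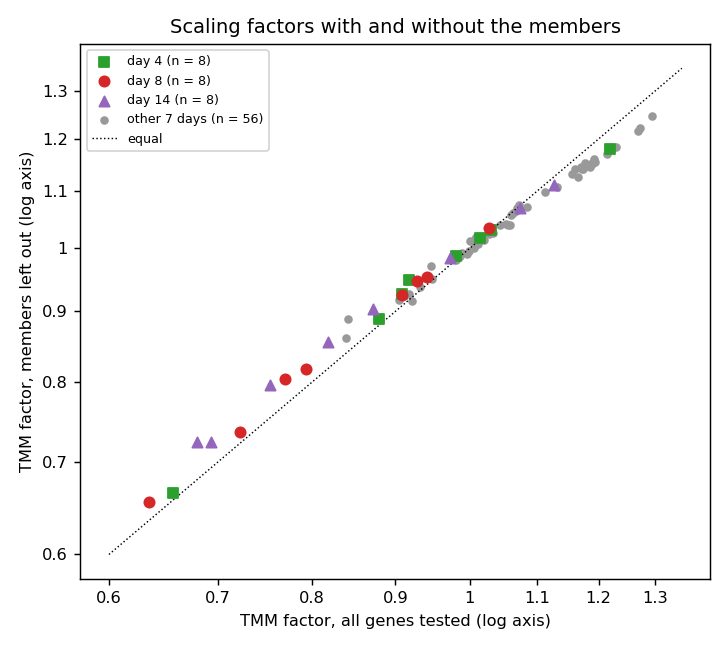
TMM factor of each of the 80 libraries with all genes tested (horizontal, log axis) and with the 100 members left out (vertical, log axis), where the dotted line marks equal values. Libraries with low factors lie slightly above the line but remain low, such as that of animal 39104 on day 8 (0.635 with and 0.654 without members).

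Longer lists were left out as well, and the means of days 8 and 14 then lay closer to 1. Without ranks 1 to 10, which held 6.65% of day 0 counts, day 8 stood at 0.840. Without the 1000 most abundant genes, 56.6% of day 0 counts, it stood at 0.876, and without 5000 genes, 90.9% of day 0 counts, at 0.909. Day 14 stood at 0.868, 0.918 and 0.932 under the same omissions. Day 4 moved little, at 0.942 without 10 genes, 0.944 without 100, 0.943 without 500 and 0.967 without 5000, and days 0 and 7 had 1.05 and 1.02 on the last list. The lengths above 100 were added after the first values had been seen.

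The same gradient showed in how counts were divided among bands of genes ordered by day 0 rank. From day 7 to day 8 the mean share went from 1.48% to 1.69% for rank 1, from 5.40% to 5.79% for ranks 2 to 10, from 13.4% to 15.9% for ranks 11 to 100 and from 34.9% to 36.8% for the next 900 genes. It went from 34.7% to 32% for the 4000 genes after those and from 10.1% to 7.85% for all lower ranks. Most of the members' gain thus lay in ranks 11 to 100, while rank 1 added little. On day 14 ranks 11 to 100 again took 16% of counts, and 13.2% on day 17. Fewer genes were needed for 50% of the counts on those days, with means of 620 on day 4, 533 on day 8 and 525 on day 14 against 717 on day 7 and 720 on day 17.

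**Figure D3:**
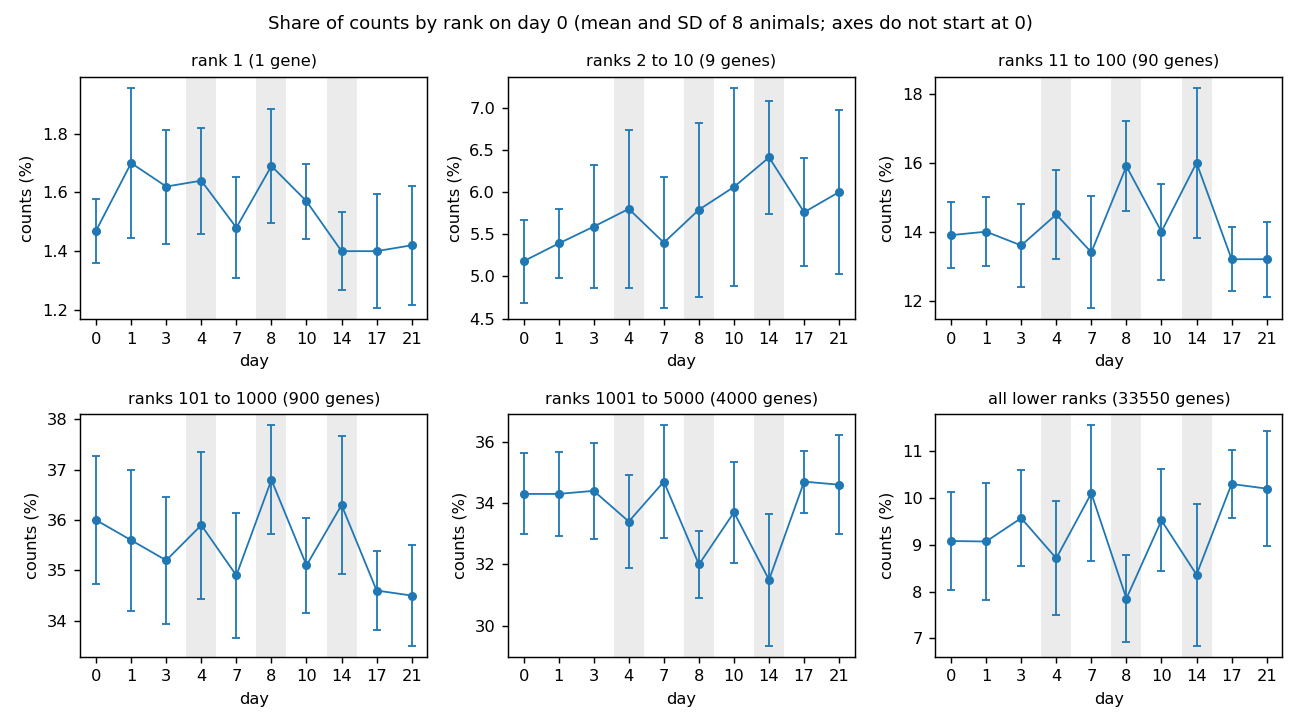
Mean share of counts (points) with SD over 8 animals (bars) by day for bands of genes ordered by day 0 rank, with axes that do not start at 0 and days 4, 8 and 14 shaded. Ranks 11 to 100 rise from 13.4% on day 7 to 15.9% on day 8, while the band of 4000 genes goes from 34.7% to 32%.

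Members were also among the genes whose CPM grew most in absolute terms, both on the low-factor days and on the way back. From day 7 to 8 the mean CPM of 63 members was higher and that of 37 lower. The 63 gained 46270 CPM together, 30.8% of the gain of all genes that grew, and all 10 of the largest gains belonged to members. That share of the gain was 26.7% from day 3 to 4 and 35.4% from day 10 to 14, where 8 and 9 of the 10 largest gains were those of members. On the way back, from day 4 to 7, 8 to 10 and 14 to 17, members still held 6, 6 and 9 of the 10 largest gains. Their share of the gain was then 10.7%, 12% and 9.84%. Abundant genes have more CPM to gain, so these counts follow in part from the rule. In each of the 3 intervals leading to days 4, 8 and 14, the member ranked 34 gained most, by 2713, 5206 and 5319 CPM. This was 14.8%, 11.3% and 16.4% of the members' gain. The first of these gains came from animal 39102, without which the mean of rank 34 changed by -107.9 CPM from day 3 to 4 and rank 9 gained most, at 1582 CPM. The second was 3278 CPM without animal 39102 and 3368 CPM without 39104.

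Single members were tested with edgeR's quasi-likelihood test, with the animal as a block, TMM scaling and Benjamini-Hochberg adjustment over the 16054 genes that passed a filter on low counts. All 100 members passed that filter. From day 7 to 8, after the dose of 15 µg/kg, 21 members rose and 0 fell at an adjusted p under 0.05. Over all genes tested 6% were called higher and 7.77% lower. The median log2 fold change was 0.54 for the members and -0.06 for all genes, with 82 of the 100 members above 0. The rise was not particular to the members. The next 900 genes by day 0 rank had a median of 0.37, with 77.7% above 0. The 4000 genes after those had 0.10, and the 11054 lowest-ranked genes tested had -0.17. Under scaling by library totals the medians of the members and of all genes were 0.17 and -0.43. At that scaling 29 members were called higher and 13 lower. The share of all genes called at that scaling is not given. The fitted change of 19 members had the opposite sign under library totals, though that of none of the 21 called did. The count was 0 without any 1 of animals 39090, 39095, 39098, 39100 and 39102, 7 without 39097 and 32 without 39103. It was 4 without the animal block.

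Ranks 1 to 10 show the spread within that comparison. Rank 9 had a lowest value of 1214 CPM, a median of 2159 CPM and a highest of 12830 CPM on day 7, and 991.2, 5929 and 16920 CPM on day 8. The ranges overlap, but after TMM scaling it was higher in 8 of 8 animals and rose by a fitted log2 value of 0.87 (SE 0.237, edgeR adjusted p = 0.041). In CPM rank 9 was lower on day 8 in animal 39102 (1214, then 1092) and in animal 39104 (1703, then 991.2). Rank 7 went from a median of 3799 CPM to 5691 CPM and rose by 0.83 (SE 0.201, adjusted p = 0.033 by edgeR), higher in 7 of 8 animals. Both calls were lost when any 1 of animals 39090, 39095, 39098, 39100 and 39102 was left out, at an adjusted p of 0.06 to 0.096, and that of rank 9 also without 39097 (0.053). The other 8 did not pass the test. Rank 1, at a median of 15570 CPM on day 7 and 16760 CPM on day 8, had a log2 difference of 0.56 (adjusted p = 0.11 by edgeR). Ranks 5 and 10 had differences of -0.18 and -0.19 (adjusted p = 0.47 and 0.40).

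The members with the highest and lowest fitted changes from day 7 to 8 are the ones printed with identifiers. Rank 16, ENSMFAG00000032558, ran from 208.1 CPM to 3047 CPM on day 7 (median 1968) and from 1362 CPM to 9295 CPM on day 8 (median 4049). Its value was higher in 8 of 8 animals, with a log2 difference of 1.91 that missed the threshold (SE 0.633, adjusted p = 0.064 by edgeR) and passed without animal 39104 (1.48, adjusted p = 0.041). Rank 34, ENSMFAG00000045130, had a difference of 1.88 (SE 0.743, adjusted p = 0.099 by edgeR) and was higher in 8 of 8 animals after TMM scaling. In CPM it was slightly lower in animal 39103, at 15350 on day 7 and 15040 on day 8. The lowest 2 were rank 85, ENSMFAG00000047593, and rank 60, ENSMFAG00000039479, each at -0.38 and each lower in 7 of 8 animals (adjusted p = 0.12 for both). Rank 85 went from a median of 1451 CPM to 950 CPM and rank 60 from 1744 CPM to 1112 CPM. None of these 4 passed the test.

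From day 8 to day 10 the pattern turned. Both intervals use the same day 8 libraries, so a turn is partly built in and is no independent result. At an adjusted p under 0.05 by edgeR, 16 members fell and 0 rose, where 5.51% of all genes were called lower and 5.64% higher. The median log2 fold change was -0.38 for the members and 0.04 for all genes, and 82 members were below 0. Rank 16 had the lowest fitted change, at -1.56 (SE 0.436, adjusted p = 0.045 by edgeR, lower in 7 of 8 animals), with medians of 4049 CPM on day 8 and 1817 CPM on day 10. Rank 85 had the highest, at 0.37 (adjusted p = 0.072). The call of rank 16 was lost when any 1 of animals 39090, 39095, 39098, 39100 and 39104 was left out, at an adjusted p of 0.082 to 0.11. Library totals gave 14 members higher and 20 lower, again without a share of all genes at that scaling. Omitting animal 39095 or 39098 left 0 calls, omitting 39104 left 1, 39090 left 2, 39100 left 3 and 39102 left 10, whereas omitting 39097 gave 41. No call was made without the animal block, and 1 with the run tag as a term.

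The interval from day 14 to day 17 had the most calls of the 6 intervals. By edgeR 58 members fell and 0 rose, against 10.8% of all genes called lower and 9.23% called higher. The median log2 fold change was -0.54 for the members and 0.06 for all genes. With library totals the medians were -0.18 and 0.43, and 14 members were called higher and 35 lower. Here too no share of all genes is given for that scaling. Ranks 2, 3, 4, 7 and 8 fell by 0.74, 0.65, 0.72, 0.54 and 0.61 on the log2 scale (adjusted p = 0.032, 0.038, 0.024, 0.04 and 0.042), each in 7 or 8 of 8 animals. Omitting any 1 of animals 39090, 39097, 39102 and 39103 ended each of these 5 calls. Further single omissions also ended those of ranks 2, 3, 7 and 8, which were lost in 5, 6, 6 and 6 of the 8 omissions. Rank 1 had a difference of -0.38 (adjusted p = 0.13) and ranks 5 and 10 of 0.11 and 0.04 (0.55 and 0.84). The highest was that of rank 53, at 0.37 (adjusted p = 0.34), or 0.19 without animal 39097 and 0.56 without 39098. Calls rested on single animals here too: the members' count was 0 without animal 39090, 39102 or 39103, where no gene of all those tested was called, and 18 without 39097. Restricting the fit to the shared tag left 3 animals and gave 31. Those 3 are all male, so neither run nor sex varies within that subset.

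Of the 16 members that fell from day 8 to 10, 15 also fell from day 14 to 17, which is 93.8% of the first list and 25.9% of the second. No member was called higher in either interval, so calls in opposite directions could not occur. Since 58 of the 100 members fell in the second interval, many were bound to be shared. Over all genes tested, 308 of the 884 that fell from day 8 to 10 also fell from day 14 to 17, which is 34.8% of the first list and 17.8% of the second. These 2 comparisons share no libraries, although they share the animals.

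The remaining intervals had no member past the threshold in edgeR. From day 3 to 4 the median log2 fold change of the members was 0.21 against -0.01 for all genes, 10 members had an unadjusted p under 0.05, and 0% of all genes were called higher and 0.181% lower. DESeq2 called 1 member. The highest fitted change was that of rank 46, at 0.81 (SE 0.418, adjusted p = 0.47 by edgeR), and the lowest that of rank 82, at -0.27 (adjusted p = 0.69). Without animal 39102 these were 0.45 and -0.01. From day 4 to 7 the medians were -0.31 and 0.03, and 32 members and 19.2% of all genes had an unadjusted p under 0.05. After adjustment 2.19% of all genes were called higher and 0.885% lower. DESeq2 called 16 members, 2 higher and 14 lower. Rank 46 was lowest at -1.27 and rank 85 highest at 0.35 (adjusted p = 0.20 for both by edgeR). From day 10 to 14 the medians were 0.28 and -0.03, and 42 members and 21.9% of all genes had an unadjusted p under 0.05. After adjustment 0.891% of all genes were called higher and 0.990% lower. DESeq2 called 38 members, all higher. The shares of all genes in this paragraph are those of edgeR with TMM scaling and do not apply to the DESeq2 counts. Rank 34 was highest at 1.21 (adjusted p = 0.12) and rank 26 lowest at -0.23 (adjusted p = 0.26), the latter lower in 8 of 8 animals. No animal has both its day 10 and its day 14 library in the shared tag, so this comparison has no value within that tag.

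**Figure D4:**
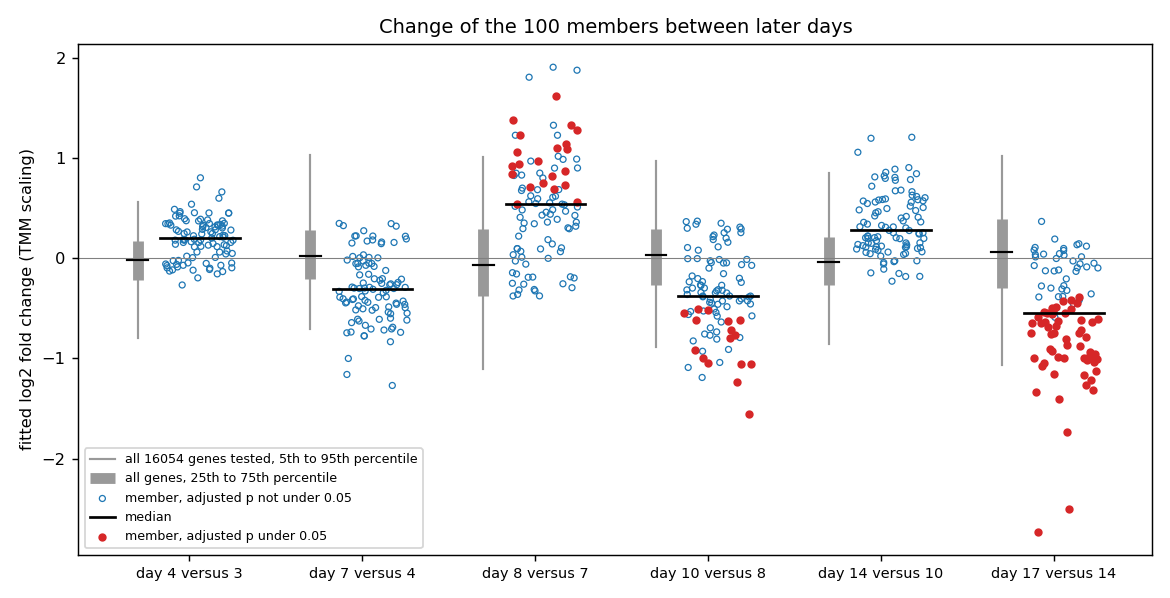
Fitted log2 fold change of the 100 members (points, filled where the adjusted p is under 0.05) in 6 intervals between later days, beside the 5th to 95th and 25th to 75th percentiles of all 16054 genes (grey bars), with a line at each median. The members' median is above that of all genes for days 4, 8 and 14 (0.21, 0.54 and 0.28) and below it for days 7, 10 and 17 (-0.31, -0.38 and -0.54). The next 900 genes by day 0 rank moved the same way but less far. Their medians were 0.14, 0.37 and 0.16 for days 4, 8 and 14, and -0.21, -0.28 and -0.30 for days 7, 10 and 17.

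The member ranked 34 had the widest swings among those described, and they came from a few animals at a time. On day 3 its 8 values ran from 262.5 CPM to 5589 CPM (median 1082). On day 4 it reached 22750 CPM in animal 39102, above the value of rank 1 in any library of that day, while the other 7 libraries held 187.3 to 2964 CPM. On day 7 it was 15350 CPM in animal 39103 and at most 1931 CPM elsewhere. On day 8 animals 39102, 39103 and 39104 had 19950, 15040 and 18290 CPM, and the other 5 had 1435 to 2998 CPM. On day 14 animals 39090, 39097, 39103 and 39104 had 14180, 14960, 10860 and 20680 CPM, and the other 4 had 1122 to 2028 CPM. By days 17 and 21 its means were 1156 and 853.7 CPM, and no library exceeded 3658 CPM. From day 14 to 17 the log2 level fell by 2.73 in 8 of 8 animals (SE 0.662, adjusted p = 0.024 by edgeR), a call that was lost when any 1 of animals 39090, 39097, 39102 and 39103 was left out, at an adjusted p of 0.052 to 0.068.

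High values of rank 34 and low factors often met in the same library. Of the 8 libraries with a factor under 0.8, 7 held 10860 CPM of it or more, the exception being animal 39098 on day 8 with 2159 CPM. The reverse did not hold throughout: animal 39103 on day 7 and animal 39097 on day 14 had 15350 and 14960 CPM with factors of 0.839 and 0.819. Whether the transcript has a part in those factors was not tested.

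Rank 16 and rank 46 had related courses at lower levels. Rank 16 had means of 1634 CPM on day 7, 4690 CPM on day 8, 2049 CPM on day 10, 4154 CPM on day 14 and 1402 CPM on day 17. It fell by 1.73 from day 14 to 17 in 8 of 8 animals (SE 0.407, adjusted p = 0.022 by edgeR). Rank 46 had means of 1063, 3259, 1725, 3557 and 555.5 CPM on the same days and fell by 2.50 from day 14 to 17 in 8 of 8 animals (SE 0.52, adjusted p = 0.019 by edgeR). Its highest values were 8628 CPM in animal 39090 on day 14 and 7994 CPM in animal 39104 on day 8, both of them libraries with a factor under 0.8. The calls of ranks 16 and 46 were lost on omitting 39090, 39102 or 39103 (adjusted p 0.051 to 0.066).

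Other abundant members went the opposite way in CPM. Rank 5 had a median of 6827 CPM on day 7, 5055 CPM on day 8, 5186 CPM on day 14 and 7077 CPM on day 17. Rank 10 had medians of 3977, 2930, 3122 and 3994 CPM on those days. Their fitted log2 changes after TMM scaling stayed between -0.19 and 0.11 in the comparisons of day 8 with 7 and of day 17 with 14, and none passed the test. With library totals both rose from day 14 to 17, by 0.48 and 0.41 (adjusted p = 0.017 and 0.033 by edgeR). After TMM scaling the median of all genes in these comparisons was -0.06 and 0.06. With library totals the rises of ranks 5 and 10 lay near the median rise of all genes at that scaling, given above.

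**Figure D5:**
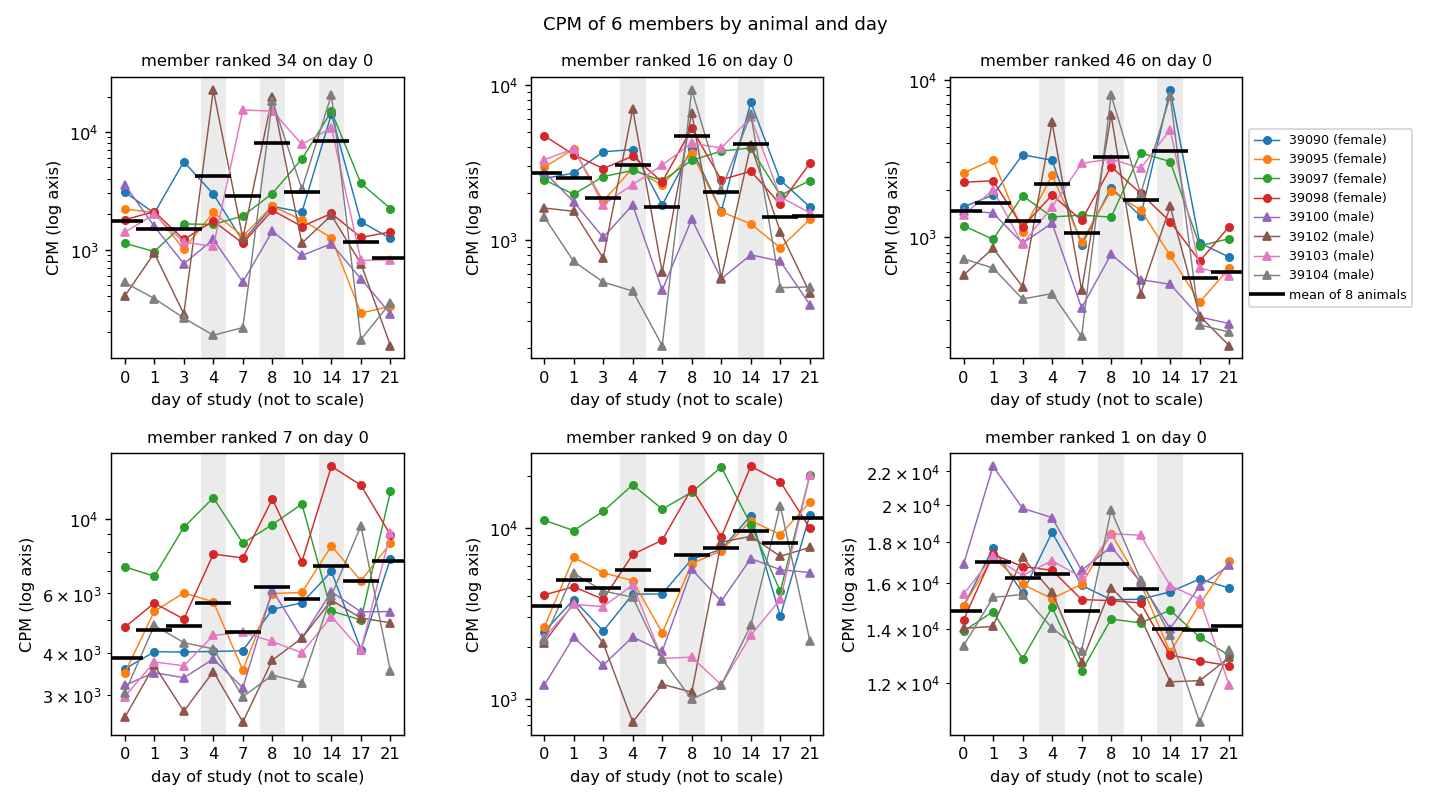
CPM (log axes) by day for the members ranked 34, 16, 46, 7, 9 and 1 on day 0, with 1 line per animal, circles for females, triangles for males and a bar for the mean of 8 animals, and days 4, 8 and 14 shaded. Rank 34 reaches 22750 CPM in animal 39102 on day 4 and 20680 CPM in animal 39104 on day 14, while rank 1 stays between 10740 and 22330 CPM in all 80 libraries.

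By the end of the study some members had left the top of the list and others had gained. By mean CPM, 94 members were among the 100 most abundant genes on day 1, 81 to 89 on days 3 to 14, 76 on day 17 and 74 on day 21, and 23 were outside on both of the last days. Rank 46 was the lowest on day 21, at place 214 with 605.9 CPM. Rank 9 went from a mean of 3495 CPM on day 0 to 9563 CPM on day 14 and 11450 CPM on day 21, where its lowest value was 2181 CPM, its median 10890 CPM and its highest 20220 CPM. Rank 7 went from 3845 CPM to 7491 CPM over the same time. A list chosen for high values on 1 day tends to lose members on any other day, and these comparisons with day 0 carry no test.

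As description, and with library totals, the median log2 difference of the members from day 0 was between -0.03 and 0.00 on days 1, 3 and 4, and -0.09 on day 7. Day 8 had 0.08, day 10 had -0.01, day 14 had 0.07, day 17 had -0.17 and day 21 had -0.21. The medians of all genes tested were -0.12, -0.23 and -0.19 on days 4, 8 and 14 and 0.09 and 0.08 on days 17 and 21. With TMM factors, the members' medians on days 4, 8 and 14 became 0.15, 0.40 and 0.34. Members were also counted by whether all 8 animals lay on 1 side of their own day 0, with library totals. On day 1, 8 members were higher in 8 of 8 animals and 3 lower, where 2.34% of all genes were higher and 3.01% lower. Day 3 had 9 and 4 members (4.12% and 4.68% of all genes), day 4 had 9 and 3 (2.03% and 6.36%) and day 7 had 11 and 8 (5.38% and 4.46%). Day 8 had 8 members higher and 1 lower (1.38% and 11.6%), day 10 had 9 and 7 (5.69% and 7.39%) and day 14 had 3 and 6 (1.83% and 9.53%). The last days had the most, with 13 and 22 on day 17 (9.21% and 5.47%) and 17 and 25 on day 21 (8.29% and 6.95%). With TMM factors the balance shifted. Day 1 then had 9 members higher and 0 lower (2.88% and 2.42% of all genes), day 3 had 11 and 3 (5.48% and 4.07%), day 4 had 12 and 0 (4.7% and 3.49%) and day 7 had 6 and 7 (5.42% and 5%). Day 8 had 14 and 1 (5% and 5.04%), day 10 had 15 and 6 (8.78% and 6.78%) and day 14 had 7 and 3 (6.29% and 5.97%), so day 14 turned from more lower to more higher. Day 17 had 9 and 25 (6.76% and 7.51%) and day 21 had 14 and 16 (6.75% and 7.98%).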

How the data were processed

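Raw counts of reads per gene, whole and not scaled, were deposited by the authors for 80 libraries in 2 tables. The first, with 38550 genes, was used here, and the second, with 35432 genes under other identifiers, only for 1 check. The labels' protocols name the RNAdvance Blood kit for RNA and KAPA HyperPrep reagents for the mRNA libraries. Not given in the sources used here are the aligner, the counter, the genome build and the use of strand, and reads shared between near-identical or overlapping genes could not be traced.

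Genes were filtered with edgeR's filterByExpr grouped by day, which left 16054 (41.6%). TMM factors were computed over all 80 libraries, and factors without the members were computed after removing their rows and their counts from the totals. Every interval was fitted on the 16 libraries of its days with edgeR 4.0.16 in R 4.3.3 (glmQLFit and glmQLFTest, animal as a block), with adjustment over all genes tested and a threshold of 0.05. The script was tested on simulated data. Differences from day 0 were taken on log2(CPM + 1). Genes described were ranks 1 to 10, the 2 highest and 2 lowest fitted changes from day 7 to 8, and the highest and lowest in each other interval. Other values of ranks 16, 34 and 46 outside the intervals that named them were added after they had been seen. The members and lists were chosen with earlier results of these data known. Lists of blood cell markers, haemoglobin and ribosomal protein genes could not be applied without gene names.

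Animal numbers in the labels mark the same animal on all days. Deviations from the day means correlated across genes with a median r of 0.52 within an animal (lowest -0.34) and -0.07 between animals, and 79 of 80 libraries correlated best with their own animal. No pair of libraries of 1 day agreed within counting noise (lowest chi-square per degree of freedom 28.3). Alternatives were library totals, TMM without members, upper-quartile factors, DESeq2 1.42.0, no filter, no replicate block, the shared tag only and leaving out each animal. A run tag term, longer lists left out, gains and the members' part without each animal, signs under library totals, TMM for changes from day 0 and leaving out animals with a library over 40 M counts (M for mega) were added after seeing the data.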

Additional observations from a re-analysis of the deposited data

Results flagged for a closer look

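On day 4 the members took 18.7% of counts in animal 39104, well below the other 7 libraries (21.45% to 23.89%). That was near the animal's own earlier level, 18.63%, 18.95% and 18.83% on days 0, 1 and 3. Animal 39102, at 18.78% on day 3, had 22.45% on day 4. In the comparison of day 4 with day 3, the member ranked 46 changed by 4.31 on the log2 scale in animal 39102, far above the other 7 animals, and this is the library with a factor of 0.657. Of 34 groups of 8 values examined for a sample far from the others, these 2 stood apart, and chance alone marks about 1 group in 20.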

How the results depend on the processing

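Mean shares and mean factors by day moved by less than 1 SD under all alternatives run, but the direction of single members depended on scaling. Under library totals, 11 of the 60 fitted changes of ranks 1 to 10 over the 6 intervals had the opposite sign, none of them called. Rank 5 for day 8 versus 7 went from -0.18 to 0.088 without animals that had a library over 40 M counts. The members' median differences from day 0 on days 3, 4 and 10, all near 0 with library totals, changed sign with TMM factors. Counts of members called depended on processing and on single animals, and are given here without the share of all genes called at each setting. With library totals they were 1 for day 7 versus 4, 42 for day 8 versus 7 (29 higher, 13 lower), 34 for day 10 versus 8 (14 and 20), 7 for day 14 versus 10 (6 and 1) and 49 for day 17 versus 14 (14 and 35), where the median of all genes shifted from between -0.06 and 0.06 to between -0.43 and 0.43. Upper-quartile factors gave 1, 33 and 1 for days 7 versus 4, 8 versus 7 and 14 versus 10. DESeq2 gave 1, 16, 60, 55 (7 higher, 48 lower) and 38 in the first 5 intervals. Without the low-count filter 8 members were called for day 14 versus 10. TMM factors computed without the members left all 6 counts as they were (0, 0, 21, 16, 0 and 58). Rebuilt for whole libraries, such factors nearly equal the full ones (geometric means of 0.830 and 0.832 on day 8), so this alternative tests little. Without the replicate block, that is, ignoring the pairing by animal, 4 members were called for day 8 versus 7 and 0 for day 10 versus 8. Within the shared tag the counts were 0 for day 8 versus 7 (which leaves out animal 39095) and 31 for day 17 versus 14. With the run tag as a term they were 1 for day 10 versus 8 and 6 for day 14 versus 10. Without animals that had a library over 40 M counts, 56 were called for day 8 versus 7. For day 10 versus 8 that setting left 1 animal and was not run. With TMM factors the members' median difference from day 0 was 0.145 on day 4, 0.404 on day 8 and 0.34 on day 14. The cause of these shifts was not tested.

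Leaving out 1 animal at a time gave 0 to 1 members for day 4 versus 3 (1 without 39102), 0 to 7 for day 7 versus 4 (2 without 39102, 7 without 39103), 0 to 32 for day 8 versus 7, 0 to 41 for day 10 versus 8, 0 to 8 for day 14 versus 10 (4 without 39095, 8 without 39097) and 0 to 59 for day 17 versus 14. The members are the most deeply counted genes of day 0, so depth limits them less than other genes. Labels do not give the time of bleeding relative to the dose.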

Other observations

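In the second deposited table, which counts reads under other identifiers, the 100 most abundant genes of day 0 took 19.7% of counts and the most abundant gene 0.972%, against 20.5% and 1.47% in the first table.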
